A study of Homo sapiens with 6 samples.

Results

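The regions described here are 254 pairs of competing 3′ splice sites (acceptors) in which an acceptor outside the annotation lay 31 to 100 nt upstream of an annotated one. They were taken from 5684 pairs of acceptors at most 100 nt apart that share a 5′ splice site and passed the same read minimums. A pair was a member when the downstream junction was annotated in the files and the upstream acceptor ended no annotated junction of any library. It also needed at least 20 uniquely mapped reads in each of the 6 libraries and at least 10 reads on each acceptor over all of them. The members were thus chosen by annotation and by read numbers on the junctions, not by a test between genotypes. The minimum on the upstream acceptor counted both genotypes together, so a pair read in only 1 genotype passed through that genotype alone. This was so in 2 pairs, both read only in S34F, and their difference is in part built in by the selection. In others 1 genotype had under 10 upstream reads, so the minimum was met only with the other genotype's reads. Of these, the chromosome 15 pair at 63946575 had 3 upstream reads in wild type and 51 in S34F. The pairs on chromosome 12 (23 and 8) and at 88304825 on chromosome 6 (17 and 5) were the reverse. So were those on chromosomes 14 (22 and 3), 17 (13 and 1) and 19 (26 and 4), and at 28564206 on chromosome 1 (25 and 9). The chromosome 11 pairs at 71940067 (16 and 2) and 71940051 (18 and 9) were too. The tests of all these pairs are not independent of the selection. The value followed is the upstream share, the percentage of a pair's unique reads that joined the 5′ splice site to the unannotated upstream acceptor.

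The libraries were poly(A)+ RNA of K562, a human chronic myeloid leukaemia cell line. In all, 3 carried a U2AF1 wild-type knock-in and 3 carried U2AF1 S34F, in which phenylalanine replaces serine in a zinc finger of the protein. No treatment is given in the labels, and the number of clones behind each genotype is not given in the sources used here. The comparison asks how acceptor choice differs between the genotypes, in a series whose title concerns missplicing by mutant SF3B1. The labels do not say that the libraries of a genotype came from separate cultures, so p-values measure the spread between these libraries, which may be technical.

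U2AF1 is the small subunit of U2AF, the heterodimer that marks the 3′ end of introns early in spliceosome assembly. Its partner U2AF2 binds the stretch of C and U before the acceptor, and U2AF1 contacts the AG itself. The S34F change is known to alter which base before the AG is preferred, so that some acceptors gain use and others lose it. An acceptor is normally the first suitable AG downstream of the branch point, and use of one far upstream of the annotated site adds intron sequence to the following exon.

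The libraries held 18074706 to 39279169 unique spliced reads, with S34F replicate 3 the deepest and S34F replicate 2 the shallowest. Positions are in hg19 as the files give them, as the first or last base of an intron. Each upstream acceptor lies by construction inside an annotated intron. Genes, coding frames, sequences, cell markers and the U2AF1 substitution itself were not analysed here, so pairs are named by chromosome and position.

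The 254 pairs had 250 different upstream acceptors, 249 different downstream acceptors and 246 different 5′ splice sites, so a few share a site and are not independent. They lay on 22 chromosomes, most often on chromosome 19 with 30 pairs and chromosome 1 with 29. Both introns of every pair were of the GT-AG kind, and 136 pairs lay on the plus and 118 on the minus strand. The distance between acceptors had a median of 55 nt and was spread over the whole range, with 59 pairs at 31 to 40 nt and 20 at 91 to 100 nt. The added stretch was a multiple of 3 nt in 73 pairs, or 28.7%. The annotated intron had a median length of 581 nt and ran from 83 to 49743 nt.

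The unannotated acceptor was the minor site in nearly every pair. Its share averaged over the 6 libraries had a median of 2.15% and a middle range of 0.837% to 4.33%, and only 2 pairs were above 50%. The junction to it carried a median of 18 reads over all libraries, against 822 for the annotated junction. Every upstream junction had a read with an overhang of at least 25 nt on its shorter side. In 209 pairs the unannotated acceptor was joined to 1 5′ splice site, in 37 to 2 and in 8 to 3. In 244 pairs no 5′ splice site lay between the acceptors, that is, no junction in the files started from the stretch between them. Upstream reads were present in all 6 libraries for 131 pairs. The number of pairs without an upstream read was 46 in wild-type replicate 3 and 7 in the deepest library, S34F replicate 3.

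Over the 254 pairs the upstream share was higher in S34F in 129 pairs and lower in 125, and the median difference was 0.0087 percentage points, compared with -0.16 points over all 5684 pairs. Summed over the pairs, the unannotated acceptors took 0.523%, 0.574% and 0.534% of the reads in wild-type replicates 1, 2 and 3. They took 0.471%, 0.437% and 0.604% in S34F replicates 1, 2 and 3. The group means were 0.544% ± 0.027 in wild type and 0.504% ± 0.088 in S34F (SD, n = 3 each), and the libraries overlapped because S34F replicate 3 had the highest value of all. The 10 pairs with the most reads held 64.3% of these reads. Without them, a choice made after seeing the data, the wild-type sums were 1.51%, 1.47% and 1.56%, the S34F sums were 1.33%, 1.33% and 1.45%, and the groups did not overlap. No test was made of these sums, since the pairs were chosen with earlier results known.

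Single pairs differed between the libraries of the genotypes. The test was edgeR's quasi-likelihood F-test on the upstream and downstream counts, fitted to all 5684 pairs, with Benjamini-Hochberg adjustment over them. A pair was called when its adjusted p was under 0.05 and the group means differed by at least 10 percentage points. Of the 254 pairs, 6 were called, compared with 2.85% of all pairs tested. In 4 the unannotated acceptor fell in S34F, against a background of 2.48% called lower. In 2 it rose, against 0.369% called higher. Both rises met the minimum of 10 upstream reads only through S34F, and 1 of the 2 is a pair read only in S34F. The falls on chromosomes 12 and 6 met it only through wild type. These counts are thus not independent of the selection. The 6 called pairs are 2.36% of the members, close to the background, but most members have shares too low to differ by over 10 points. How many of all pairs are limited in this way was not counted, so the closeness is not read as a like response. The 2 sets are not alike, since the median wild-type upstream share was 94.0% over all pairs and 2.28% over the members. A lower upstream share is thus mostly less use of the major site in the background and of the minor site here. With an average share of 5% or less the groups cannot differ by more than 10 points, and none of these members was called. They are the 70 members at up to 1% and the 131 above 1% and up to 5%. DESeq2 called 3 of these 6 and limma on log2 odds called 0, with 31 and 52 members at an unadjusted p under 0.05.

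**Figure D1:**
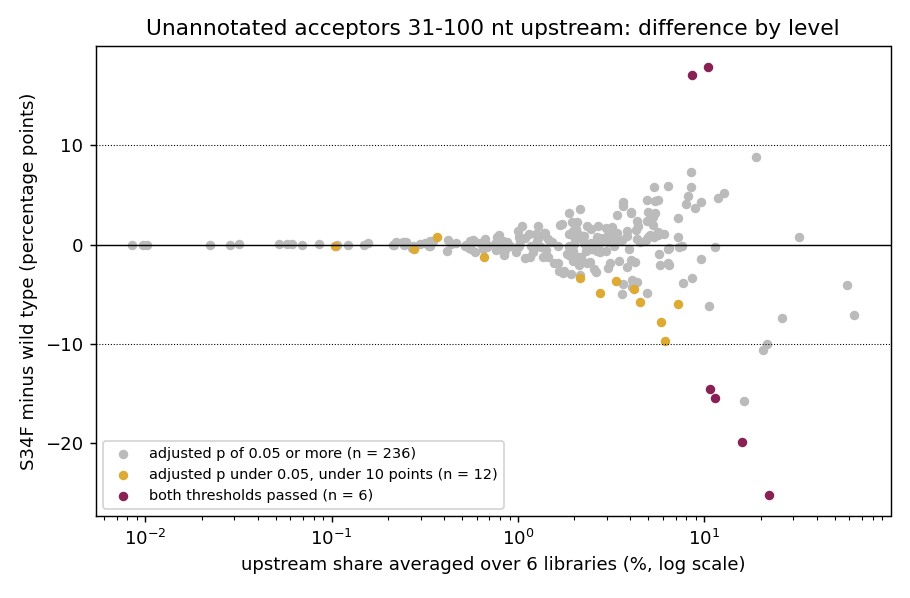
Difference in upstream share, S34F minus wild type in percentage points, against the upstream share averaged over the 6 libraries (percent, log scale), for the 254 pairs. Dotted lines mark 10 points in each direction. Of the 9 pairs outside them, 6 were called, 4 below and 2 above, and most of the 254 pairs lie close to 0.

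The largest fall was on the plus strand of chromosome 5. There the 5′ splice site at 173376601 was joined to the unannotated acceptor at 173376882 or to the annotated one at 173376962, 80 nt downstream. The unannotated junction held 38, 28 and 33 of the 82, 106 and 104 pair reads in wild-type replicates 1, 2 and 3. It held 24, 6 and 16 of 239, 63 and 171 in the S34F replicates. All S34F libraries were thus below all wild-type libraries, and the share went from 34.8% ± 10.3 to 9.64% ± 0.36 (SD, n = 3 each). With edgeR the log2 odds changed by -2.27 with an SE of 0.38 (adjusted p = 2.75e-05). The pair passed in each of the 6 edgeR fits that left out 1 library. Its adjusted p over all alternatives ran from 2.16e-06 to 0.074, the latter with limma on log2 odds.

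On chromosome 9 (plus strand), the pair with acceptors at 101594021 (unannotated) and 101594053 (annotated) was 32 nt wide, near the lower limit of distance. The unannotated acceptor held 21, 16 and 10 of 103, 76 and 79 reads in wild type and 5, 1 and 5 of 88, 45 and 200 in S34F. The groups did not overlap, and the share fell from 18.03% ± 4.7 to 3.47% ± 1.9 (edgeR, log2 odds change -2.64 with SE 0.53, adjusted p = 0.000354). It passed in all 6 edgeR fits that left out 1 library. Over all alternatives its adjusted p ran from 0.000185 to 0.074, with 0.056 in DESeq2 and the highest value in limma.

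The other 2 falls rested on fewer reads. On chromosome 12 (minus strand), the acceptor at 9574562, 75 nt upstream of 9574487, held 3, 12 and 8 of 24, 35 and 26 reads in wild type. In S34F it held 1, 2 and 5 of 24, 27 and 78. The share fell from 25.9% ± 11.7 to 5.99% ± 1.7 (edgeR, log2 odds change -2.42 with SE 0.67, adjusted p = 0.0141). The groups did not overlap, although wild-type replicate 1, at 12.5%, was well below the other wild-type libraries. The adjusted p from edgeR was 0.135 without wild-type replicate 2, 0.0592 without wild-type replicate 3 and 0.135 without S34F replicate 3. It was also 0.164 with DESeq2, 0.118 with limma and 0.284 with no read minimum, in a range from 0.00281 over all alternatives.

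On chromosome 6 (plus strand), the acceptor at 88304825, 64 nt upstream of 88304889, held 7, 3 and 7 of 28, 23 and 36 reads in wild type. It held 0, 4 and 1 of 28, 44 and 49 in S34F. The share fell from 19.2% ± 6.0 to 3.71% ± 4.8 (edgeR, log2 odds change -2.41 with SE 0.77, adjusted p = 0.0428), with no overlap between the groups. A further annotated acceptor at 88311501 took reads from the same 5′ splice site, so the pair held 68.6% of that site's reads. This was the weakest of the 6 calls. With edgeR it did not pass without wild-type replicate 1 (adjusted p = 0.121) or 3 (0.11), or without S34F replicate 1 (0.139) or 3 (0.252). It also failed with DESeq2 (adjusted p = 0.226), limma (0.129), the replicate block (0.0527), multi-mapped reads added (0.0728) and no read minimum (0.74, the highest; the lowest over all alternatives was 0.023).

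The larger rise was on the minus strand of chromosome 15, with an unannotated acceptor at 63946575 and its annotated partner 51 nt downstream at 63946524. The unannotated acceptor held 0, 1 and 2 of 63, 84 and 58 reads in wild type and 20, 6 and 25 of 97, 32 and 133 in S34F. The S34F libraries were close together, at 20.6%, 18.8% and 18.8%, and all above the wild-type libraries. The share rose from 1.55% ± 1.8 to 19.4% ± 1.1 (edgeR, log2 odds change 3.87 with SE 0.67, adjusted p = 4.59e-05). It passed in each fit that left out 1 library, and its adjusted p over all alternatives ran from 1.62e-05 to 0.0581, the latter with limma. The added 51 nt are a multiple of 3. With 3 upstream reads in wild type and 51 in S34F, the pair met the minimum of 10 only through S34F. Its test is thus not independent of the selection.

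On chromosome 16 (plus strand), the unannotated acceptor at 90061121, 45 nt upstream of 90061166, had no read in wild type. The 0 of 110 wild-type reads allow a share of up to 2.73% over the group. In S34F it held 5, 6 and 6 of 25, 25 and 82 reads, a mean share of 17.1% ± 8.7 (n = 3; edgeR adjusted p = 0.00348). Pooled over the group this is 17 of 132 reads, or 12.9%, which is 4.72 times the limit. All 17 reads of this acceptor were in S34F, so it passed the minimum of 10 upstream reads only through S34F and had to differ; its test and fold are given as a description. S34F replicate 3, with the most reads, had the lowest S34F share, 7.32%. An annotated acceptor at 90061100, further upstream, also took reads from this 5′ splice site, with 5, 15 and 4 in the wild-type libraries and 4, 4 and 12 in the S34F libraries. The pair passed in all 6 edgeR fits that left out 1 library. Over all alternatives its adjusted p ran from 0.000628 to 0.0562, with the highest value in limma and 0.0541 with no read minimum.

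**Figure D2:**
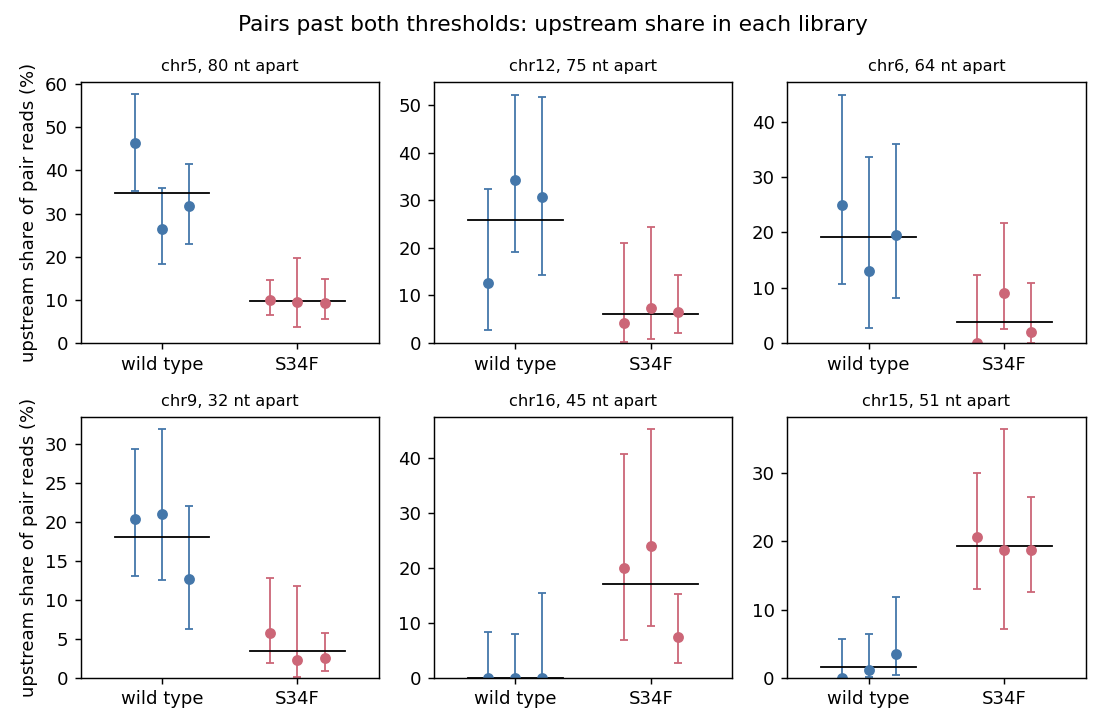
Upstream share (percent of pair reads) in each library for the 6 called pairs, titled by chromosome and distance. Points are libraries with 95% Clopper-Pearson intervals, which cover counting error only, and black lines are group means; in each panel the 3 S34F libraries lie on one side of the 3 wild-type libraries.

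Both junctions of a pair were then set against the library size, as reads per 1000000 unique spliced reads. In the chromosome 5 pair the unannotated junction had 1.44 ± 0.29 in wild type and 0.587 ± 0.38 in S34F, while the annotated one had 2.84 ± 1.0 and 5.42 ± 3.3. In the chromosome 9 pair the unannotated junction had 0.661 ± 0.16 and 0.132 ± 0.079, and the annotated one 3.06 ± 0.59 and 3.65 ± 1.3. In the chromosome 15 pair the unannotated junction had 0.0478 ± 0.052 in wild type and 0.607 ± 0.26 in S34F, and the annotated one 2.9 ± 0.43 and 2.49 ± 0.95 (SD, n = 3 each). In these 3 pairs, as in the chromosome 16 pair, the genotypes overlapped on the annotated junction and not on the unannotated one. The chromosome 12 pair was the reverse, with 0.337 ± 0.19 and 0.0935 ± 0.045 on the unannotated junction, which overlapped, and 0.892 ± 0.058 and 1.41 ± 0.44 on the annotated one, where every S34F library was higher. The chromosome 6 pair overlapped on both junctions, with 0.252 ± 0.12 and 0.0823 ± 0.12 on the unannotated and 1.04 ± 0.39 and 1.54 ± 0.58 on the annotated one. The chromosome 15 and 16 pairs met the minimum of 10 upstream reads only through S34F. Those on chromosomes 12 and 6 met it only through wild type. The reads on their unannotated junctions are thus not independent of the selection. In such bulk RNA, fewer cells that use a junction and less of its RNA per cell cannot be told apart.

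**Figure D3:**
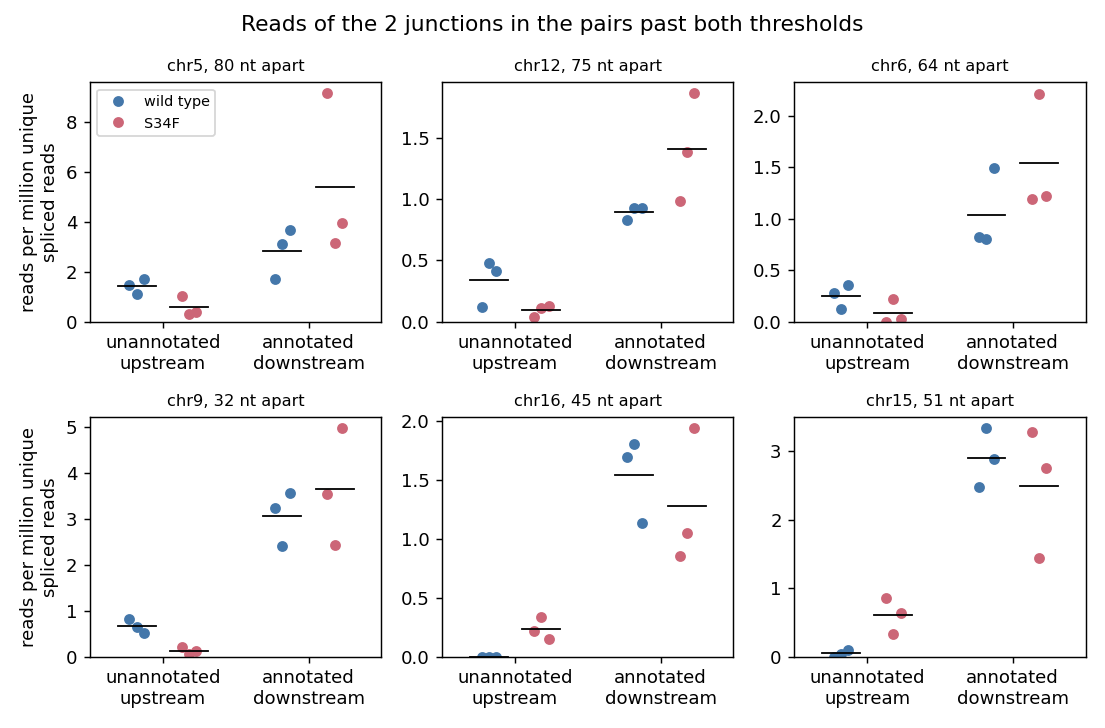
Reads per 1000000 unique spliced reads on the unannotated upstream and the annotated downstream junction of the 6 called pairs. Points are libraries, blue for wild type and red for S34F, and black lines are group means. In the chromosome 15 and 16 pairs the unannotated junction is higher in every S34F library while the annotated one overlaps. Both of these pairs met the minimum of 10 upstream reads only through S34F, so this is in part built in by the selection.

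A further 12 pairs passed the adjusted p without the 10-point minimum. In all, 18 of 254 (7.09%) had an adjusted p under 0.05, compared with 6.53% of all pairs tested. Of the 18, 15 fell (5.91% of the members, background 5.7%) and 3 rose (1.18%, background 0.827%). All 3 rises met the minimum of 10 upstream reads only through S34F, and several of the falls only through wild type. These counts are thus not independent of the selection. Of the 12, 11 fell. Falls also prevailed over all pairs tested, with 324 of the 371 past the adjusted p and 141 of the 162 called. By edgeR the count of 18 was 8 without S34F replicate 3 and 9 without wild-type replicate 3.

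The lowest p among the members belonged to a fall under 10 points. On chromosome 1 (minus strand), the acceptor at 21076469, 93 nt upstream of 21076376, held 19, 34 and 37 of 381, 361 and 250 reads in wild type. It held 7, 6 and 15 of 424, 275 and 754 in S34F. Every S34F library was below every wild-type library, and the share fell from 9.74% ± 4.9 to 1.94% ± 0.27 (edgeR, log2 odds change -2.35 with SE 0.38, adjusted p = 1.24e-05). Over the alternatives its adjusted p ran from 1.06e-07 to 0.0873, the latter with limma. The same 2 acceptors were also joined to a 5′ splice site further upstream, at 21091869, by junctions outside the annotation. There the upstream acceptor held 4, 14 and 13 of 41, 69 and 50 reads in wild type and 3, 1 and 4 of 30, 20 and 67 in S34F. That share was 18.7% ± 8.2 in wild type and 6.99% ± 2.7 in S34F, lower in S34F on average but with overlapping libraries, and it did not pass (edgeR adjusted p = 0.122).

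The acceptor at 24772187 on chromosome 14, 92 nt upstream of 24772279, held 6, 8 and 8 of 62, 74 and 64 reads in wild type. It held 0, 2 and 1 of 53, 59 and 166 in S34F. The share fell from 10.996% ± 1.4 to 1.33% ± 1.8, a difference just under the 10-point minimum (edgeR, log2 odds change -3.33 with SE 0.76, adjusted p = 0.00218). Its adjusted p was 0.105 without S34F replicate 3, 0.0757 with DESeq2 and 0.0844 with limma, and at its lowest 0.00126.

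On chromosome 11 (plus strand), 2 unannotated acceptors competed with the same annotated acceptor at 71940133. The nearer one, at 71940067, fell from 5.16% ± 2.4 to 0.321% ± 0.32 (edgeR, log2 odds change -3.69 with SE 0.87, adjusted p = 0.00278; 0.0532 without S34F replicate 3, 0.0856 with DESeq2, 0.0569 with limma and 0.0677 with no read minimum). It held 9, 2 and 5 reads in wild type and 1, 0 and 1 in S34F. The farther one, at 71940051, held 7, 6 and 5 reads in wild type and 3, 2 and 4 in S34F. Its shares were 6.2% ± 0.84 and 1.92% ± 0.63, with no overlap but an edgeR adjusted p of 0.0605. The pairs use the reads of 1 annotated junction and are not independent; the farther one is named because of this shared site, after its values were seen.

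The last 2 pairs of this kind had small shares at deeply read junctions. On chromosome 17 the acceptor at 45300790, 84 nt upstream of 45300874, held 4, 2 and 7 of 513, 330 and 291 reads in wild type and 1, 0 and 0 of 619, 397 and 1096 in S34F. Its edgeR adjusted p was 0.00348, and 0.0771 without wild-type replicate 3 and 0.0724 without S34F replicate 3; it was 0.119 with DESeq2, 0.0872 with limma and 0.0992 with no read minimum. The difference in share was -1.21 points, and -0.64 points without wild-type replicate 3. On chromosome 19 the acceptor at 3979512, 77 nt upstream of 3979435, held 1, 7 and 18 of 5230, 5222 and 4526 reads in wild type and 1, 2 and 1 of 6444, 4257 and 12887 in S34F. Here the groups overlapped, since wild-type replicate 1 was as low as the S34F libraries. Its difference was -0.16 points (edgeR adjusted p = 0.00243), and -0.053 points without wild-type replicate 3, which held most of the reads (adjusted p = 0.26; 0.32 with DESeq2 and 0.336 with limma). The single rise among the 12 pairs, named after its values were seen, was on chromosome 6 (minus strand). There the unannotated acceptor at 31747661, with its partner 69 nt downstream at 31747592, had 0 of 1045 reads in wild type, which allows a share of up to 0.287%, and 2, 1 and 8 of 256, 252 and 783 in S34F (edgeR adjusted p = 0.0256). Its S34F share was 0.733% ± 0.32 (n = 3), and 0.852% pooled over the group, which is 2.97 times that limit. It too passed the minimum only through S34F and had to differ, so these values are a description.

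The unannotated acceptors with the highest share of their pair's reads were, apart from the chromosome 5 pair above, not called. On chromosome 5 (plus strand), the acceptor at 130727521, 89 nt upstream of 130727610, was the major site. It held 52, 82 and 51 of 90, 104 and 78 reads in wild type and 29, 31 and 63 of 51, 51 and 100 in S34F, so that the libraries overlapped. Its share was 67.3% ± 10.7 and 60.2% ± 3.1 (edgeR, log2 odds change -0.45 with SE 0.38, adjusted p = 0.636). On chromosome 11 (plus strand), the acceptor at 65389676, 39 nt upstream of 65389715, was also the major site. It held 33, 31 and 18 of 51, 55 and 30 reads and 27, 19 and 58 of 40, 36 and 119, or 60.4% ± 4.2 and 56.3% ± 9.9 (edgeR, log2 odds change -0.34 with SE 0.43, adjusted p = 0.793).

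The pair on the minus strand of chromosome 1 at 3659525, 49 nt upstream of 3659476, had shares of 31.8% ± 8.5 in wild type and 32.5% ± 12.0 in S34F (edgeR, log2 odds change -0.04 with SE 0.44, adjusted p = 0.985). Its reads were 24, 10 and 16 of 80, 41 and 39 in wild type and 11, 19 and 32 of 44, 41 and 122 in S34F. An annotated acceptor lay between the acceptors of this pair, at 3659522, very close to the unannotated one. It took 127 reads from the same 5′ splice site over all libraries, against 112 on the unannotated acceptor. The pair on chromosome 15 at 75648815, 93 nt upstream of 75648722, had 29.7% ± 12.9 and 22.3% ± 5.4 (edgeR adjusted p = 0.771). It held 9, 6 and 11 of 34, 32 and 25 reads in wild type and 12, 5 and 9 of 42, 26 and 47 in S34F. Both acceptors of that pair were minor, with 21.1% of the reads leaving the 5′ splice site. Most reads went to an annotated acceptor between them, at 75648791, with 748 over all libraries. The unannotated acceptor took 5.98% of that site's reads in wild type and 5.25% in S34F on average. The SE of the log2 odds change was between 0.38 and 0.55 in these 4 pairs, so differences of that size were not detectable.

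**Figure D4:**
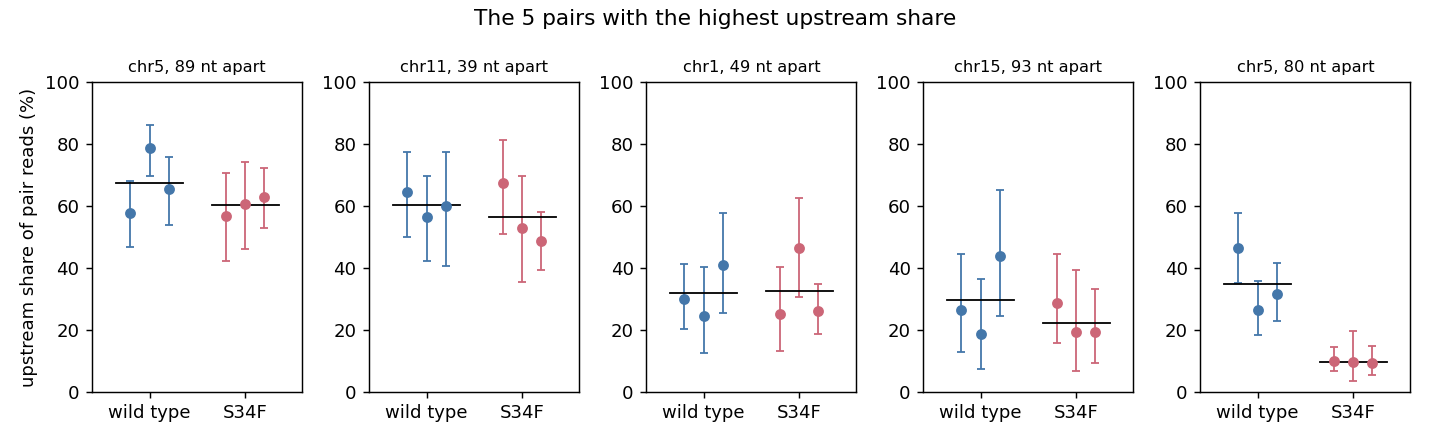
Upstream share (percent of pair reads) in each library for the 5 pairs with the highest share averaged over the 6 libraries. Points are libraries with 95% Clopper-Pearson intervals and black lines are group means; the groups overlap in the first 4 panels and are apart in the chromosome 5 pair with 80 nt between its acceptors.

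Another 3 pairs differed by 10 points or more without passing the adjusted p, and in all of them the S34F libraries lay below the wild-type libraries. On chromosome 1 the acceptor at 28564206, 65 nt upstream of 28564271, held 10, 8 and 7 of 38, 42 and 26 reads in wild type and 3, 2 and 4 of 41, 20 and 52 in S34F. Its shares were 24.1% ± 4.4 and 8.34% ± 1.5 (edgeR adjusted p = 0.0738). With 25 upstream reads in wild type and 9 in S34F, it met the minimum of 10 only through wild type. The pair held only 1.4% of the reads leaving that 5′ splice site, most of which went to an annotated acceptor at 28564347. On chromosome 10 the acceptor at 70136773, 43 nt upstream of 70136730, held 15, 9 and 11 of 50, 48 and 38 reads and 13, 6 and 13 of 107, 37 and 74, or 25.9% ± 6.2 and 15.3% ± 2.8 (edgeR adjusted p = 0.272). On chromosome 3 the acceptor at 47040759, 45 nt upstream of 47040804, held 18, 15 and 10 of 74, 54 and 36 reads and 11, 6 and 32 of 75, 42 and 153, or 26.6% ± 2.0 and 16.6% ± 3.7 (edgeR adjusted p = 0.402).

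The acceptor with many reads on the minus strand of chromosome 5, at 90669694 and 38 nt upstream of 90669656, showed the spread within a genotype. It held 41, 13 and 8 of 687, 305 and 215 reads in wild type and 16, 23 and 30 of 449, 432 and 468 in S34F. Wild-type replicate 1 had the most upstream reads and S34F replicate 3 the highest share, the libraries overlapped, and the share was 4.65% ± 1.2 and 5.1% ± 1.4 (edgeR adjusted p = 0.984).

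An unadjusted p under 0.05 was reached by 58 of the 254 pairs, or 22.8%, compared with 17.3% of all pairs tested. The upstream share was higher in S34F in 24 of them (background 3.71%) and lower in 34 (background 13.6%). The genotypes did not overlap in 60 pairs (23.6%, background 21.1%), with S34F above in 25 (9.84%, background 5.67%) and below in 35 (13.8%, background 15.4%). As shares of the 254 pairs, 9.45% were higher and 13.4% were lower at an unadjusted p under 0.05. No test was made of whether these shares differ from the background, in which the upstream acceptor is mostly the major site.

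By level of use, an unadjusted p below 0.05 was reached by 9 of the 17 pairs with an average share above 10%, 7 of them lower in S34F, and by 17 of the 70 pairs at or below 1%, 8 higher and 9 lower. A difference of 10 points is out of reach at the low shares, so calls are not compared by level. By distance, an unadjusted p under 0.05 was reached by 20 of 112 pairs at 31 to 50 nt, 11 higher and 9 lower. At 51 to 100 nt it was reached by 38 of 142, 13 higher and 25 lower. By the length of the added stretch, it was reached by 16 of 73 pairs with a multiple of 3 nt, by 21 of 91 with a remainder of 1 and by 21 of 90 with a remainder of 2. These counts are descriptions without a matching share over all pairs, and they were not tested.

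The most similar kinds of pair were counted the same way. Where both junctions were annotated at the same 31 to 100 nt, 59 of 1110 pairs were higher and 253 lower at an unadjusted p under 0.05, and the median difference in upstream share was -0.75 points. Where the unannotated acceptor lay 31 to 100 nt downstream of an annotated one, 14 of 802 pairs were higher and 261 lower, with a median of -0.7 points; a lower upstream share there is a higher share of the unannotated acceptor. For unannotated acceptors only 10 to 30 nt upstream, 22 of 407 pairs were higher and 17 lower, with a median of 0.007 points. Calls were 86 of 1110, 22 of 802 and 3 of 407 in these kinds of pair, against 6 of 254. The median wild-type upstream share was 89.3%, 98.7% and 1.38% in these kinds, against 2.28% in the members, so they differ in level. The difference between the kinds was not tested.

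**Figure D5:**
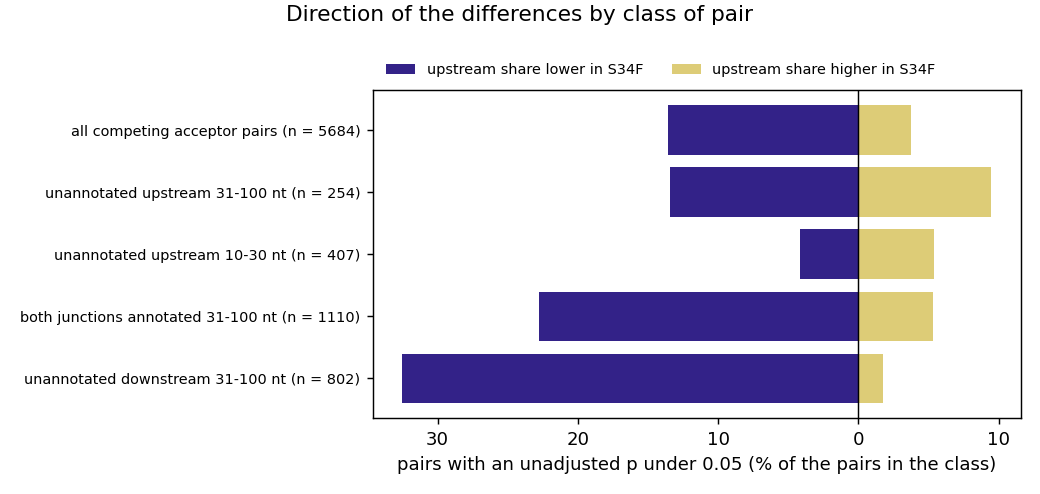
Percentage of pairs with an unadjusted p under 0.05 in edgeR, split by direction, for all competing pairs and 4 kinds of pair. Bars to the left are pairs with a lower upstream share in S34F and bars to the right pairs with a higher one; the pairs with an unannotated acceptor 31 to 100 nt upstream reach 13.4% and 9.45%.

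The values beside the limits of the selection were as follows. Pairs whose lowest library had 20 or 21 reads, just inside, numbered 7 and had a median upstream share of 5.12% in wild type and 6.06% in S34F. Those with 18 or 19 reads, just outside, numbered 9 and had 9.66% and 5.32%. With 10 upstream reads in all there were 23 pairs, with medians of 1.37% and 1.96%, and with 9 there were 34 pairs, with 1.0% and 0.697%. At 31 to 32 nt there were 14 pairs, with medians of 2.36% and 2.01%, and at 29 to 30 nt there were 27, with 0.805% and 1.43%. Without any read minimum, 5835 pairs of this kind had at least 1 read on each acceptor, and their unannotated acceptors together took 0.113% ± 0.0026 of the reads in wild type and 0.113% ± 0.023 in S34F (SD, n = 3 each).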

How the data were processed

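Each of the 6 libraries came with 1 deposited junction table without a header. Per the submitters' processing notes the authors used STAR and the hg19 build; the version, annotation and junction filters are not given in the sources used here. The values are raw counts of unique reads and of multi-mapped reads per junction, deposited without normalization. The other columns of the deposited tables (position, strand, motif code, annotation flag, overhang) carry other units.

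Tables were joined on position, and a missing junction counted as 0. Every pair of junctions (motif codes 1 to 6) with 1 5′ splice site and acceptors at most 100 nt apart was built, and 5684 passed the read minimums. edgeR 4.0.16 (R 4.3.3) fitted 2 counts per library with an intercept per library, which absorbs library size, the count type, and its interaction with S34F; the coefficient is the change in log2 odds, with SE the coefficient over the square root of F. The test was checked on simulated data. DESeq2 1.42.0, limma 3.58.1 (0.5 added to each count), other filters and leaving out each library were alternatives. Junction counts of every pair of libraries differed by more than sampling noise, with a chi-square per degree of freedom of at least 4.7. Intervals and floors (3 counts) cover counting error only.

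The members and lists were chosen with earlier results of these data known. Pairs named are the called members, the 10 with the largest difference, the 5 with the highest share, the 5 with the most upstream reads, and the 5 with the lowest p among those not called; exceptions are stated. The gene lists and cell type markers that were planned need gene positions of hg19 and were not analysed here.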

Additional observations from a re-analysis of the deposited data

How the results depend on the processing

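The count of 6 called pairs was 3 with DESeq2, with 31 pairs at an unadjusted p under 0.05. It was 0 with limma on log2 odds, with 52 at an unadjusted p under 0.05. It was 1 with at least 50 reads in every library (184 pairs), 1 when at least 20 percentage points were required and 18 when none were. It was 6 with the newer edgeR dispersion, an overhang of at least 20 nt, GT-AG introns only, or no 5′ splice site between the acceptors. It was 7 for a mean of at least 20 reads, 5 after adding multi-mapped reads and 4 without a low-count filter. Over all pairs tested the 162 calls were 41 with DESeq2, 10 with limma, 95 without the filter and 92 with at least 50 reads. Leaving out each library gave 4 to 7 calls. With the replicate block 5 were called. The labels do not say that same-numbered libraries belong together. Their deviations over 5684 pairs had correlations of -0.052, -0.035 and -0.035, which cannot show whether they were prepared together. The median difference stayed within the replicate spread of 0.168 points, from -0.032 to 0.082. The difference in the summed share was -0.039 points and moved to -0.145 without the 10 most-read pairs, chosen after seeing the data; in the other alternatives it ran from -0.0895 to 0.00013. Of the named pairs, 3 uncalled ones changed sign. The log2 odds of the chromosome 1 pair at 3659525 became 0.0049 with DESeq2 and 0.025 with limma, and up to 0.255 without 1 library (lowest -0.39). The chromosome 5 pair at 90669694 ran from -0.18 to 0.349 and the chromosome 11 pair at 65389676 from -0.598 to 0.0061 without 1 library. The causes were not tested. With a median of 18 upstream reads per pair, small differences were not detectable.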

Other observations

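Unannotated acceptors with at least 1 multi-mapped read on their junction numbered 34 of the 254. They include the called pairs on chromosome 5, with 2 multi-mapped reads, and chromosome 12, with 5. An unadjusted p under 0.05 was reached by 6 of the 34, or 17.6%, near the 17.3% of all pairs tested. The upstream share was lower in S34F in all 6, where 13.6% of all pairs and 13.4% of the members were lower at that threshold. The direction in so few pairs is a description and was not tested.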
